A study of Homo sapiens with 14 samples.

Results

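The S100 calcium-binding family and its annexin partner ANXA2 were followed in CWR22Rv1, a line of human prostate cancer cells. The set holds 10 of the 27819 genes shared by the deposited count tables, namely S100P, S100A2, S100A4, S100A6, S100A10, S100A11, S100A13, S100A14, S100A16 and ANXA2. They were taken by gene symbol and, in the table without symbols, by NCBI gene number. The members were chosen by their fold changes against DMSO in these same libraries, so those changes are given as a description with standard errors. Where a member is said to be called, or is marked so in a plot, the call comes from the contrast that chose it and is no independent test. The 14 RNA-seq libraries came from cells kept for 72 h, 3 of them in DMSO as the vehicle control. Fucotrim I was given at 30 μM to 3 samples and Fucotrim II at 60 μM to 2 samples, while 3 samples had 100 μM SGN-2FF, called 2FF in the sample labels, and 3 had 2 μM P-SiaFNEtoc. Fucotrim I and Fucotrim II were designed to block the enzyme that begins the cell's own synthesis of GDP-fucose. SGN-2FF is a fluorinated fucose that lowers fucosylation, and P-SiaFNEtoc is a fluorinated sialic acid that blocks sialyltransferases. All libraries came from 1 cell line, the doses differed between the inhibitors, and every inhibitor was compared with the same 3 DMSO libraries. The values of the inhibitors are therefore set side by side and not tested against each other.

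S100 proteins are small proteins built from EF-hand motifs, which are helix-loop-helix folds that hold calcium. Most form dimers, change shape when calcium rises, and then bind partners at the membrane, the cytoskeleton or in the nucleus, and some are also secreted and bind the cell-surface receptor AGER (RAGE). S100A10 has lost calcium binding and pairs with ANXA2, an annexin that attaches to membrane phospholipids in the presence of calcium. In epithelial tumors several S100 genes are followed as markers of invasion or of differentiation, and in the normal prostate S100A2 is known as a gene of the basal cells.

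The genes lie in 3 places in the genome. S100P (NCBI gene 6286) is on chromosome 4 from 6693878 to 6697170 on the plus strand (hg38). The other 8 S100 genes lie on the minus strand of chromosome 1, with S100A10 (gene 6281, 151982915 to 151993859) and S100A11 (gene 6282, 152032506 to 152037004) on one side. A tight group follows with S100A6 (gene 6277, 153534599 to 153535991), S100A4 (gene 6275, 153543621 to 153545806), S100A2 (gene 6273, 153561108 to 153565844), S100A16 (gene 140576, 153606883 to 153613137), S100A14 (gene 57402, 153614255 to 153616325) and S100A13 (gene 6284, 153618799 to 153634361). ANXA2 (gene 302) is on the minus strand of chromosome 15 from 60347151 to 60397986. Reads of S100A13 could be shared with other loci, because 24.2% of its exon bases overlap another annotated locus on the same strand and 10.6% overlap S100A1 on the opposite strand. For ANXA2, 2.07% of the 100-base windows of all its annotated transcripts have an exact match in its processed copy ANXA2P2. The share of its reads that could come from either was not tested. In S100A6, 3.81% of the exon bases overlap a locus on the opposite strand, and the other S100 genes of the set share no exon bases with another gene.

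The promoters of the 4 members whose levels the comparisons turn on are shown here, as the 250 bases before the annotated start of each gene (RefSeq, hg38), 5′ to 3′ on the gene's strand. Capitals mark a TATA box (TATAAA), a GC box (GGGCGG) or an AP-1 site (TGANTCA, where N is any base).
S100P, chr4:6693628-6693877, plus strand: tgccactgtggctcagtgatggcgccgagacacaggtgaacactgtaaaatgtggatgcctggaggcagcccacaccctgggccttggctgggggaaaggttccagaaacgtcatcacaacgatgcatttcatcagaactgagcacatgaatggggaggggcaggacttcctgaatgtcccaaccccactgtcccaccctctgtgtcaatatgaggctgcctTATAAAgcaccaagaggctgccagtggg
S100A6, chr1:153535992-153536241, minus strand: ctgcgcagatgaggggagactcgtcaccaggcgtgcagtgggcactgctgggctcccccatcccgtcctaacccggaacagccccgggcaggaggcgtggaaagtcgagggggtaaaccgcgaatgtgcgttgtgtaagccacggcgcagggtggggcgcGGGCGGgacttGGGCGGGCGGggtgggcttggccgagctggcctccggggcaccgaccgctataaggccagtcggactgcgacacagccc
S100A10, chr1:151993860-151994109, minus strand: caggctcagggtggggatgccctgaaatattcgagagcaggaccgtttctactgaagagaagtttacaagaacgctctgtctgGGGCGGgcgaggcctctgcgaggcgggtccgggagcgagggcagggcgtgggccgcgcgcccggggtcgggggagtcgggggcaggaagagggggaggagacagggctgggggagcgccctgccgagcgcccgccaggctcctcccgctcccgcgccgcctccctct
ANXA2, chr15:60397987-60398236, minus strand: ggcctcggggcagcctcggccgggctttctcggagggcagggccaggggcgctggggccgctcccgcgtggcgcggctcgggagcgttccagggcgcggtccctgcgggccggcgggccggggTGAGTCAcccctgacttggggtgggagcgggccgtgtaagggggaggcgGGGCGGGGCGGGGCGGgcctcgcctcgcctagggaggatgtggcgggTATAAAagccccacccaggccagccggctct

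The S100P window has a TATAAA beginning 28 bases before the start and a GC content of 55.6%, while the S100A6, S100A10 and ANXA2 windows are richer in GC (70.0%, 71.2% and 78.0%). S100A6 has GGGCGG at 90, 79 and 75 bases before the start, the last 2 overlapping, S100A10 has one at 167 bases, and ANXA2 has 3 overlapping ones between 78 and 68 bases, a TATAAA at 31 bases and TGAGTCA at 127 bases. These 3 motifs were searched for on both strands of all RefSeq promoter windows, which run from 250 bases before to 50 bases after a start. So were the letters CCAAT, the cyclic AMP response element TGACGTCA and the steroid receptor motif core AGAACA, which are not contained in one another. Of 35116 promoters, 11.5% held TATAAA, 45.0% GGGCGG, 7.71% TGANTCA, 34.6% CCAAT, 1.85% TGACGTCA and 14.8% AGAACA. The 10 genes had 14 windows, and TATAAA was found in 4 of them (S100P, S100A4, S100A13 and ANXA2), CCAAT in 2, GGGCGG in 6, TGANTCA in 2 (S100A2 and ANXA2), and TGACGTCA and AGAACA in 0. These matches describe letters in the windows and nothing about the binding of a factor.

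To see how the set behaved under each inhibitor, fold changes against DMSO were estimated for all genes with enough counts, and a gene was called higher or lower at a Benjamini-Hochberg adjusted p under 0.05 in edgeR. Of the 10 genes, 6 had enough counts to be fitted, with at least 176 counts in every library, and 4 (S100A2, S100A4, S100A14 and S100A16) had at most 11 counts in any library and were fitted with none of the inhibitors. With Fucotrim I, 4 of the 6 fitted genes were called higher, where 21.6% of all 14188 genes fitted were called higher. With Fucotrim II this held for 5 of 6, against 25.6% of 14617 genes, with SGN-2FF 6 of 6 against 11.5% of 14312 genes, and with P-SiaFNEtoc 6 of 6 against 9.02% of 14259 genes. The number called lower was 0 in each comparison, where 22.1%, 25.7%, 9.08% and 7.33% of all genes were called lower, and 43.8%, 51.4%, 20.6% and 16.3% in either direction. Every treated library stood above every DMSO library for 4 of these members under Fucotrim I and for 6 under each other inhibitor, beside 25.6%, 33.5%, 18.6% and 17.3% of all genes. All treated libraries stood below DMSO for 0 members and for 27%, 34.2%, 17.4% and 16.4% of all genes. Under Fucotrim I, Fucotrim II, SGN-2FF and P-SiaFNEtoc the 6 members had median log2 fold changes of 0.36, 0.72, 0.38 and 0.56, while the medians over all genes fitted were between 0.000419 and 0.00752. Because the genes were picked with these contrasts known, nothing is read from these counts beyond the description. In bulk RNA of this kind, a change in the cells that express a gene and a change in RNA per cell cannot be told apart.

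**Figure D1:**
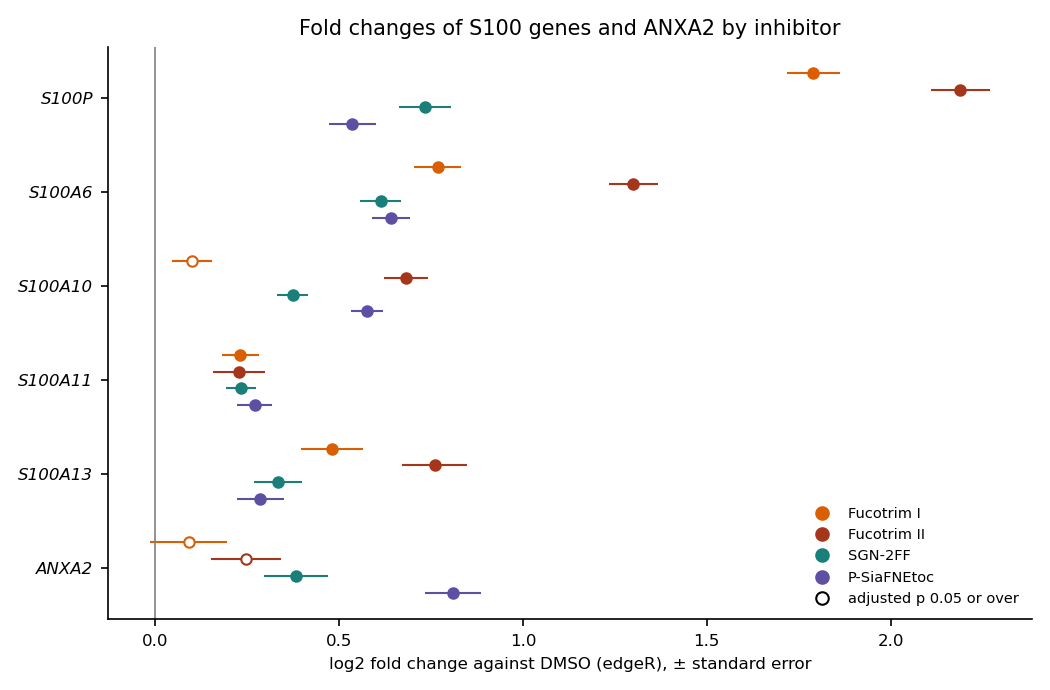
Log2 fold changes of S100P, S100A6, S100A10, S100A11, S100A13 and ANXA2 against DMSO for the 4 inhibitors, with bars of ± 1 standard error from edgeR, where open circles mark values with an adjusted p of 0.05 or over. S100P with Fucotrim II lies farthest to the right at 2.19, the S100A11 points of all inhibitors sit between 0.227 and 0.27, and ANXA2 is farthest out with P-SiaFNEtoc at 0.81.

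Counts on genes per library were between 12553094 and 19981314, with Fucotrim I between 12553094 and 14947100, and Fucotrim II at 18183854 and 19099194. Replicate libraries of a group differed by more than sampling noise in every pair, with a chi-square per degree of freedom from 1.59 to 4.37 in DMSO, SGN-2FF and P-SiaFNEtoc, from 5.66 to 17.9 with Fucotrim I, and of 24.2 between the 2 Fucotrim II libraries. The cells carried luminal prostate markers, with 8 of 8 present in every group, KLK3, KLK2, HOXB13, KRT8, KRT18 and FOLH1 among them. Their summed level was 2140 to 2220 CPM in DMSO, 3010 to 3110 CPM with Fucotrim I, 2800 to 3100 CPM with Fucotrim II, 2700 to 2830 CPM with SGN-2FF and 2470 to 2540 CPM with P-SiaFNEtoc, so this list was also higher in every treated group. Its part in the S100 values was not tested. The summed levels of 5 basal or squamous markers were at most 0.454 CPM and of 4 leukocyte markers at most 0.889 CPM. The 4 fibroblast markers summed to 18.7 to 32.7 CPM, most of it COL1A1, with the Fucotrim II libraries at 26.2 to 32.7 CPM. Of 3 neuroendocrine markers SYP made up nearly all of the 94.5 to 156 CPM, highest with Fucotrim II (130 to 156 CPM), while CHGA and INSM1 stayed at or under 0.125 CPM.

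S100P, a secreted and cytoplasmic S100 protein first found in placenta that binds ezrin, IQGAP1 and AGER, had the highest log2 fold changes of the set with both Fucotrims. Its levels in the 3 DMSO libraries were 23.4, 23.9 and 25.3 CPM (library-scaled counts, with TMM factors). With Fucotrim I they were 85.0, 75.6 and 89.6 CPM, and with Fucotrim II 103 and 118 CPM. With SGN-2FF the libraries were at 44.4, 37.7 and 37.8 CPM, and with P-SiaFNEtoc at 34.6, 34.2 and 36.1 CPM. The 5 groups did not overlap, and they stood in the order DMSO, P-SiaFNEtoc, SGN-2FF, Fucotrim I and Fucotrim II. The group means were 24.2 ± 0.996 CPM (SD, n = 3) in DMSO, 83.4 ± 7.15 CPM (SD, n = 3) with Fucotrim I and 110 ± 11 CPM (SD, n = 2) with Fucotrim II, which is 3.45-fold and 4.56-fold the DMSO level. SGN-2FF gave 40.0 ± 3.87 CPM (SD, n = 3) and P-SiaFNEtoc 35.0 ± 1.01 CPM (SD, n = 3), or 1.65-fold and 1.44-fold. The log2 fold change was 1.79 ± 0.07 (SE) with Fucotrim I, 2.19 ± 0.08 with Fucotrim II, 0.73 ± 0.07 with SGN-2FF and 0.54 ± 0.06 with P-SiaFNEtoc. Sorted from the largest rise down, S100P was gene 26 under Fucotrim I, 44 under Fucotrim II, 261 under SGN-2FF and 418 under P-SiaFNEtoc. These values rest on 404 to 431 counts per library in DMSO and 1708 to 2092 counts with Fucotrim II.

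S100A6, or calcyclin, a cytoplasmic S100 protein of dividing cells that binds CACYBP, was higher in every treated library as well. It was at 42.8, 41.3 and 40.9 CPM in DMSO. The libraries were at 67.4, 69.3 and 75.8 CPM with Fucotrim I and at 98.9 and 106 CPM with Fucotrim II. They were at 61.6, 61.4 and 66.9 CPM with SGN-2FF and at 65.9, 63.1 and 65.4 CPM with P-SiaFNEtoc. DMSO was lowest without overlap and Fucotrim II highest without overlap, while SGN-2FF and P-SiaFNEtoc overlapped each other. The log2 fold changes were 0.77 ± 0.06 (SE) with Fucotrim I, 1.30 ± 0.07 with Fucotrim II, 0.61 ± 0.06 with SGN-2FF and 0.64 ± 0.05 with P-SiaFNEtoc. Expressed as means, 41.6 ± 0.988 CPM (SD, n = 3) in DMSO stood against 103 ± 5.18 CPM (SD, n = 2) with Fucotrim II, a 2.46-fold level, and the other inhibitors were between 1.52-fold and 1.70-fold.

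**Figure D2:**
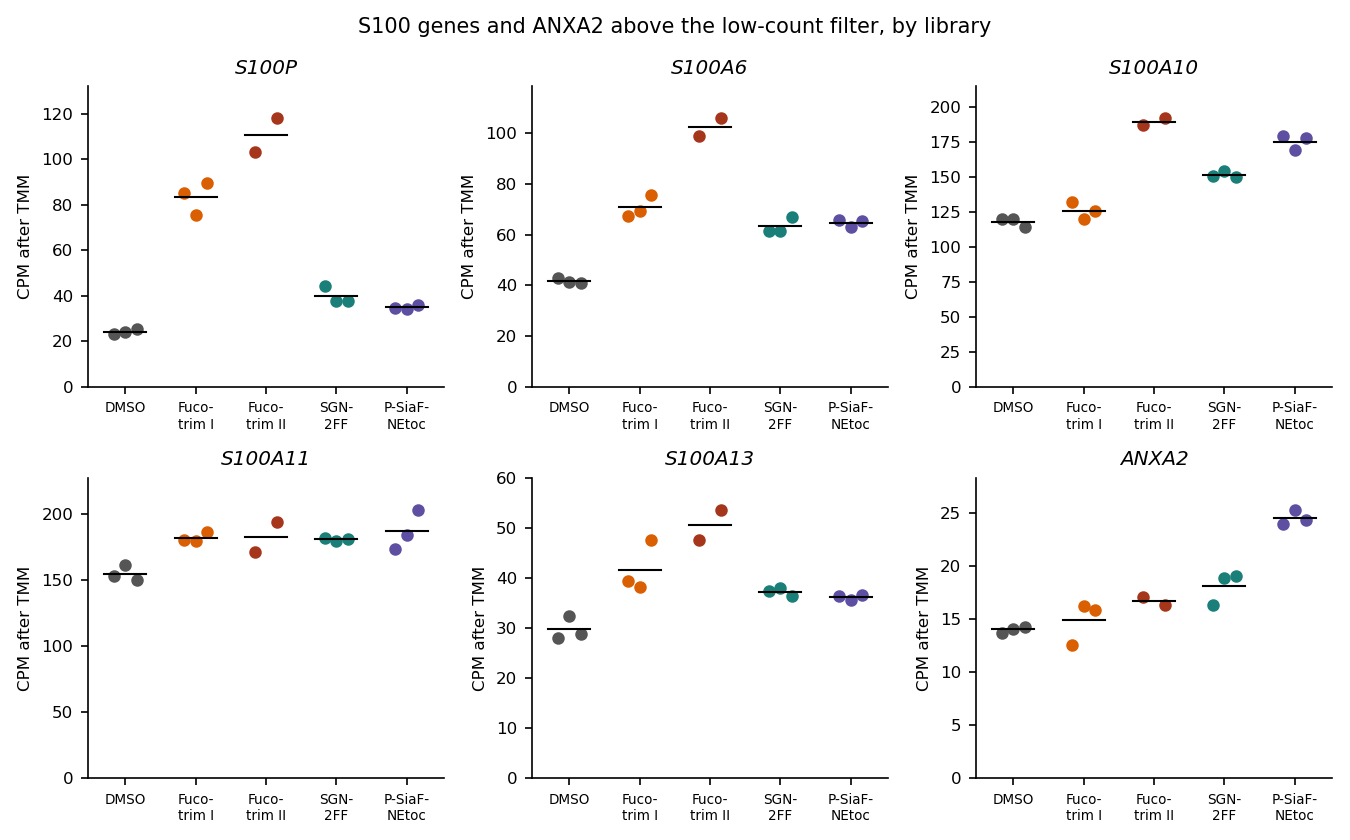
CPM after TMM scaling of S100P, S100A6, S100A10, S100A11, S100A13 and ANXA2 in the 14 libraries, each point a library and each line the mean of its group, on linear axes that start at 0. The S100P groups are apart from one another (23.4 to 25.3 CPM in DMSO, 103 and 118 CPM with Fucotrim II), and ANXA2 is highest with P-SiaFNEtoc (24.0 to 25.3 CPM).

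S100A10 and ANXA2 form one complex at the plasma membrane, where it binds plasminogen and anchors ion channels. S100A10 was at 120, 120 and 114 CPM in DMSO and at 132, 120 and 126 CPM with Fucotrim I, and these groups overlapped. With Fucotrim II it was at 187 and 192 CPM. SGN-2FF gave 151, 154 and 150 CPM, and P-SiaFNEtoc 179, 169 and 178 CPM. The groups other than Fucotrim I were above DMSO without overlap, and each neighbour in the order Fucotrim I, SGN-2FF, P-SiaFNEtoc and Fucotrim II was apart from the next. The log2 fold change was 0.10 ± 0.05 (SE) with Fucotrim I, which was not called, 0.68 ± 0.06 with Fucotrim II, 0.37 ± 0.04 with SGN-2FF and 0.58 ± 0.04 with P-SiaFNEtoc. Without Fucotrim I replicate 2 the Fucotrim I value was 0.14 and was called higher.

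ANXA2 showed another order. Its libraries were at 13.7, 14.1 and 14.3 CPM in DMSO, 12.6, 16.2 and 15.9 CPM with Fucotrim I, and 17.1 and 16.3 CPM with Fucotrim II. With SGN-2FF they were at 16.3, 18.9 and 19.1 CPM, and with P-SiaFNEtoc at 24.0, 25.3 and 24.3 CPM. P-SiaFNEtoc was highest and apart from all other groups, DMSO and Fucotrim I overlapped, and so did Fucotrim II and SGN-2FF. The log2 fold change was 0.81 ± 0.08 (SE) with P-SiaFNEtoc, a 1.75-fold mean level, and 0.38 ± 0.09 with SGN-2FF. It was 0.25 ± 0.09 with Fucotrim II and 0.09 ± 0.10 with Fucotrim I, neither of them called. The Fucotrim I value rested on single libraries, at 0.20 without Fucotrim I replicate 1 and 0.02 without replicate 2. The Fucotrim II value was close to the threshold, since it was called with DESeq2's size factors and in a fit of all 14 libraries, both at 0.25. ANXA2 had 176 to 499 counts per library.

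The relation between these partners was read within each library, as S100A10 counts per ANXA2 count, which does not depend on scaling. In DMSO there were 8.80, 8.51 and 7.92 S100A10 counts for each ANXA2 count. With Fucotrim I the ratios were 10.5, 7.39 and 7.94, and with SGN-2FF 9.27, 8.14 and 7.84, both overlapping DMSO. Fucotrim II was above DMSO at 10.9 and 11.8, and P-SiaFNEtoc was below at 7.44, 6.69 and 7.33. The means were 8.41 ± 0.449 (SD, n = 3) in DMSO, 11.4 ± 0.609 (SD, n = 2) with Fucotrim II and 7.15 ± 0.408 (SD, n = 3) with P-SiaFNEtoc. The ratio is of reads, not of molecules, because the transcripts differ in length.

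S100A11, or calgizzarin, which binds annexins and takes part in membrane repair, was a little higher with every inhibitor. It was at 153, 161 and 150 CPM in DMSO. Fucotrim I gave 180, 179 and 186 CPM, Fucotrim II 171 and 194 CPM, SGN-2FF 182, 179 and 181 CPM, and P-SiaFNEtoc 173, 184 and 203 CPM. All treated libraries were above all DMSO libraries, and the 4 treated groups overlapped each other. The log2 fold change was 0.23 ± 0.05 (SE) with Fucotrim I, 0.23 ± 0.07 with Fucotrim II, 0.23 ± 0.04 with SGN-2FF and 0.27 ± 0.05 with P-SiaFNEtoc. With Fucotrim II this call was lost without DMSO replicate 1 (0.215), 2 (0.251) or 3 (0.197), and without Fucotrim II replicate 2 the value was 0.126 and was not called.

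S100A13, which helps to release FGF1 from cells without a signal peptide, was at 28.1, 32.3 and 28.8 CPM in DMSO. With Fucotrim I it was at 39.3, 38.1 and 47.5 CPM, and with Fucotrim II at 47.5 and 53.6 CPM. With SGN-2FF the libraries were at 37.3, 37.9 and 36.4 CPM, and with P-SiaFNEtoc at 36.4, 35.6 and 36.6 CPM. All treated libraries were above DMSO, and SGN-2FF and P-SiaFNEtoc overlapped. The highest Fucotrim I library lay just under the lower Fucotrim II library, both at 47.5 CPM after rounding. Log2 fold changes were 0.48 ± 0.08 (SE) with Fucotrim I, 0.76 ± 0.09 with Fucotrim II, 0.33 ± 0.07 with SGN-2FF and 0.285 ± 0.06 with P-SiaFNEtoc. As 18.2% of its 100-base windows are shared with S100A1 or the overlapping locus, the authors' counting could have split or lost some of its reads.

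The other 4 S100 genes were at the edge of detection. S100A2, a p53-linked S100 gene of basal and squamous epithelium, had 8, 8 and 2 counts in DMSO, 4, 7 and 7 with Fucotrim I, 8 and 9 with Fucotrim II, 4, 5 and 5 with SGN-2FF, and 9, 4 and 5 with P-SiaFNEtoc. In CPM its Fucotrim II libraries (0.481 and 0.509 CPM) stood just above DMSO (0.125 to 0.444 CPM), with overlapping Poisson intervals of the pooled levels, and its other groups overlapped DMSO. S100A4, a partner of nonmuscle myosin (MYH9) tied to cell motility, had 0, 2 and 3 counts in DMSO. It had 5, 3 and 4 counts with Fucotrim I, 9 and 11 with Fucotrim II, 5, 5 and 4 with SGN-2FF, and 4, 3 and 5 with P-SiaFNEtoc. Pooled over libraries, S100A4 was at 0.0959 CPM in DMSO (exact Poisson 95% interval 0.0311 to 0.224) and at 0.583 CPM with Fucotrim II (0.356 to 0.9), intervals that do not overlap and that cover counting error only. S100A14, an S100 gene of epithelia, had 0, 5 and 1 counts in DMSO, 0, 0 and 1 with Fucotrim I, 5 and 2 with Fucotrim II, 3, 6 and 0 with SGN-2FF, and 4, 3 and 0 with P-SiaFNEtoc. S100A16, a widely expressed S100 gene, had 3, 2 and 1 counts in DMSO, 1, 0 and 2 with Fucotrim I, 0 and 1 with Fucotrim II, 3, 8 and 8 with SGN-2FF, and 11, 6 and 0 with P-SiaFNEtoc. Pooled over libraries, S100A16 was at 0.115 CPM in DMSO (0.0422 to 0.25) and at 0.44 CPM with SGN-2FF (0.265 to 0.687), again without overlap of the intervals, and all SGN-2FF libraries (0.227 to 0.607 CPM) stood above DMSO (0.0626 to 0.165 CPM). With P-SiaFNEtoc the S100A16 libraries ran from 0 to 0.529 CPM, on both sides of DMSO. Differences of S100A2 and S100A14 from DMSO lay within counting error at this depth, where a count of 0 in a library allows up to 3 counts, or 0.144 to 0.251 CPM.

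**Figure D3:**
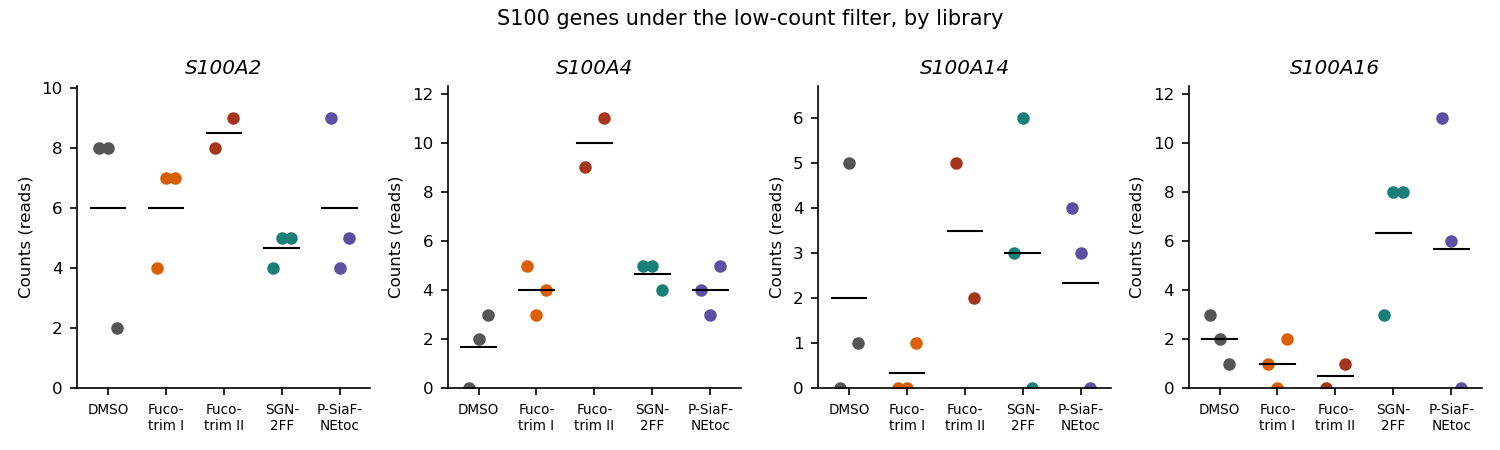
Raw counts of S100A2, S100A4, S100A14 and S100A16 in the 14 libraries, each point a library and each line the mean of its group. No library holds more than 11 counts of any of them, and S100A4 has both Fucotrim II libraries (9 and 11 counts) above the 3 DMSO libraries (0 to 3 counts).

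Levels between genes were compared per kilobase of exon. In DMSO the mean level per kilobase of all annotated exons was 239 CPM for S100A11, 117 CPM for S100A10, 51.4 CPM for S100P, 42.9 CPM for S100A6, 13.4 CPM for S100A13 and 1.21 CPM for ANXA2. Taken per kilobase of the longest transcript, S100A6 (61.9 CPM) came before S100P (51.4 CPM), and ANXA2 was at 3.98 CPM. With Fucotrim II, S100P reached 235 CPM and S100A6 106 CPM per kilobase of exons, beside 281 CPM for S100A11 and 188 CPM for S100A10.

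The summed CPM of the 9 S100 genes rose from 369 ± 10.2 (SD, n = 3) in DMSO to 505 ± 22.3 (n = 3) with Fucotrim I, 637 ± 40.1 (n = 2) with Fucotrim II, 474 ± 3.36 (n = 3) with SGN-2FF and 499 ± 18.1 (n = 3) with P-SiaFNEtoc, with no treated library as low as a DMSO library. The make-up of that sum was not the same. S100P made up 6.56% of it in DMSO, 16.5% with Fucotrim I, 17.3% with Fucotrim II, 8.43% with SGN-2FF and 7% with P-SiaFNEtoc. S100A11, the largest share in DMSO at 42.0%, was at 36.0%, 28.6%, 38.1% and 37.4% in the same order. S100A10 was at 31.9% in DMSO, 25.0% with Fucotrim I and 35.2% with P-SiaFNEtoc, and S100A6 went from 11.3% to between 13% and 16.1%.

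**Figure D4:**
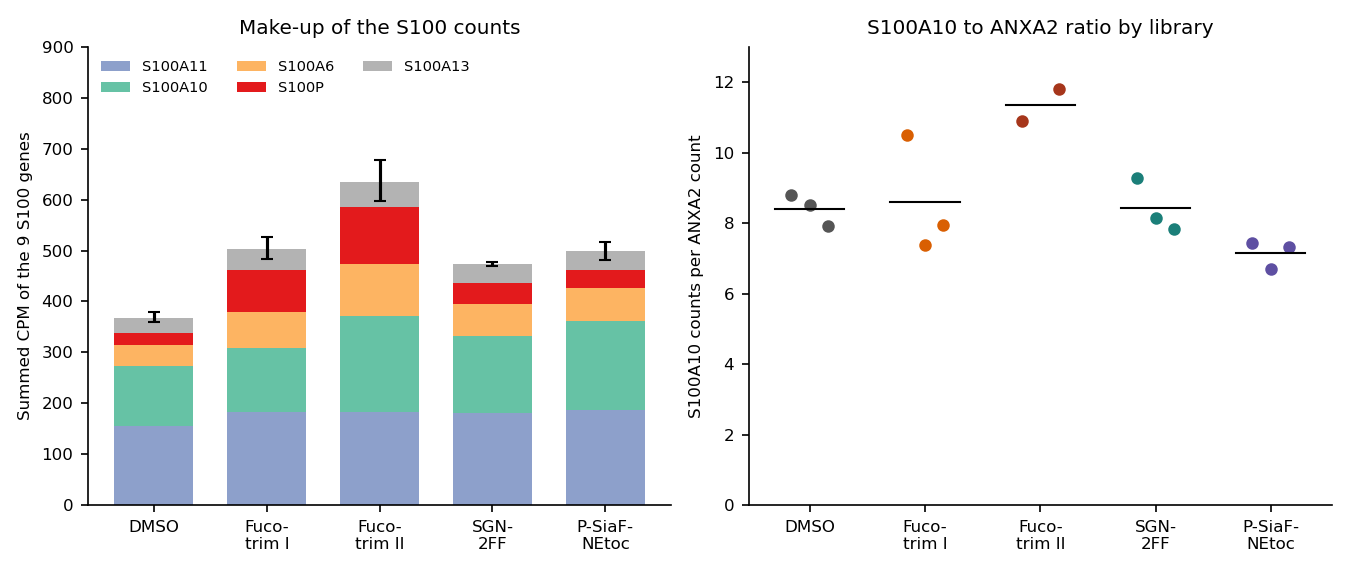
Left, mean summed CPM of the 9 S100 genes by group, split by gene, with bars of ± 1 SD over libraries (the 4 genes under the low-count filter are too few to see). Right, S100A10 counts per ANXA2 count in each library with the group mean as a line, highest with Fucotrim II (10.9 and 11.8) and lowest with P-SiaFNEtoc (6.69 to 7.44).

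Outside the set, 12 further S100 genes are listed in the tables, and 1 of them, S100A1, a gene best known from heart muscle, had enough counts to be fitted. It held 14 to 35 counts per library, with means of 1.08 ± 0.0753 CPM (SD, n = 3) in DMSO and 1.65 ± 0.398 CPM (SD, n = 3) with SGN-2FF. Its log2 fold changes were 0.39 with Fucotrim I, 0.08 with Fucotrim II, 0.65 with SGN-2FF and 0.26 with P-SiaFNEtoc, and none was called (edgeR, Benjamini-Hochberg adjusted p = 0.301, 0.857, 0.0874 and 0.568). The other 11, with the inflammatory S100A8, S100A9 and S100A12 and the neural S100B among them, had 0 or 1 count in every library. The family's signal in these cells thus rested on S100P, S100A6, S100A10, S100A11 and S100A13.

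ANXA2 is 1 of the annexins, and 8 of 12 other annexins had enough counts to be fitted. With Fucotrim I, 3 were called higher and 4 lower (median log2 fold change -0.00421). With Fucotrim II, 2 were called higher and 2 lower (median -0.0224), with SGN-2FF 3 and 1 (median 0.146), and with P-SiaFNEtoc 5 and 0 (median 0.296). Over all genes fitted, 21.6%, 25.6%, 11.5% and 9.02% were called higher in the same order of inhibitors, and 22.1%, 25.7%, 9.08% and 7.33% lower. ANXA11, which tethers RNA granules to lysosomes, was called higher with all inhibitors, at log2 fold changes of 0.24 ± 0.05 (SE) with Fucotrim I, 0.33 ± 0.08 with Fucotrim II, 0.22 ± 0.05 with SGN-2FF and 0.30 ± 0.04 with P-SiaFNEtoc, though the Fucotrim II call was lost without DMSO replicate 2 (0.29) and its value was 0.20 without Fucotrim II replicate 2. ANXA1, a glucocorticoid-induced annexin, was low at 2.50 ± 0.317 CPM (SD, n = 3) in DMSO and was called higher with Fucotrim I (0.68 ± 0.20), SGN-2FF (0.69 ± 0.18) and P-SiaFNEtoc (0.93 ± 0.17), and its value with Fucotrim II was -0.15 ± 0.23. Without Fucotrim I replicate 2 its Fucotrim I call was lost (0.50). ANXA7, a membrane-fusion annexin, was called lower with Fucotrim I (-0.20 ± 0.05), Fucotrim II (-0.35 ± 0.06) as well as SGN-2FF (-0.17 ± 0.04), while its value was 0.01 ± 0.04 with P-SiaFNEtoc.

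ANXA6, which has a doubled annexin core, differed in sign between inhibitors, at -0.40 ± 0.06 (SE) with Fucotrim I, 0.24 ± 0.08 under Fucotrim II and 0.29 ± 0.05 under P-SiaFNEtoc, all called, and 0.13 ± 0.06 with SGN-2FF, a call only without SGN-2FF replicate 3 (0.20). Its Fucotrim II call was lost without any single DMSO library (0.23 to 0.24) and without Fucotrim II replicate 2 (0.12). ANXA3, at 1.86 ± 0.24 CPM (SD, n = 3) in DMSO, was called lower with Fucotrim I (-0.72 ± 0.28) and Fucotrim II (-0.79 ± 0.28) and higher with P-SiaFNEtoc (0.66 ± 0.20). These ANXA3 calls rest on 11 to 66 counts per library, and each was lost without certain single libraries: with Fucotrim I without DMSO replicate 2 (-0.64) or 3 (-0.69) or Fucotrim I replicate 1 (-0.55) or 3 (-0.61), with Fucotrim II without DMSO replicate 2 (-0.72) or 3 (-0.77) or Fucotrim II replicate 2 (-0.64), and with P-SiaFNEtoc without DMSO replicate 1 (0.56) or P-SiaFNEtoc replicate 1 (0.59) or 3 (0.66). DESeq2 did not call ANXA3 with Fucotrim I (-0.724) or Fucotrim II (-0.786). A fit of all 14 libraries did not call it with P-SiaFNEtoc (0.657). ANXA5, which binds the phosphatidylserine that dying cells expose and was the most abundant of the annexins called in CPM (178 ± 7.98 in DMSO, SD, n = 3), was called lower with Fucotrim I (-0.17 ± 0.05), not without DMSO replicate 2 (-0.14), and was between -0.10 and -0.08 with the others.

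**Figure D5:**
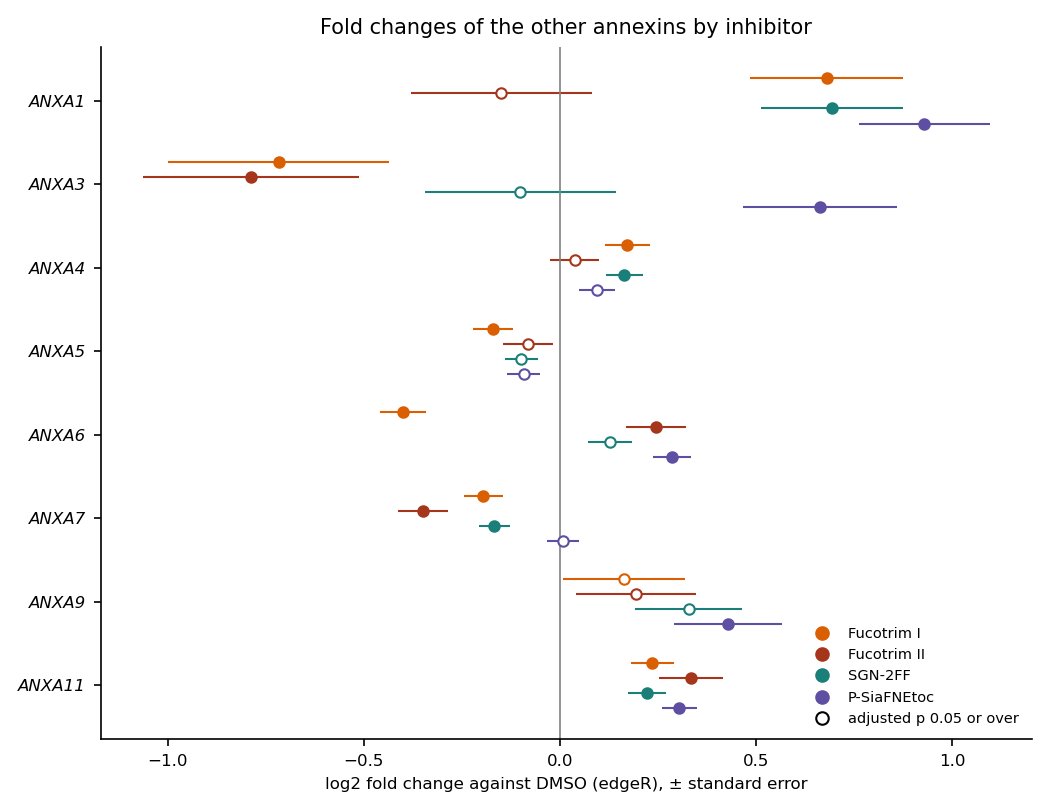
Log2 fold changes of the 8 other annexins fitted against DMSO for the 4 inhibitors, with bars of ± 1 standard error from edgeR, where open circles mark an adjusted p of 0.05 or over. ANXA11 lies to the right of 0 with every inhibitor (0.221 to 0.334), while ANXA3 and ANXA6 lie on both sides.

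Of 15 known binding partners of the S100 proteins, 10 had enough counts to be fitted. The numbers called higher and lower were 1 and 2 with Fucotrim I, 2 and 4 with Fucotrim II, 3 and 0 with SGN-2FF (0 and 0 in a fit of all 14 libraries), and 0 and 2 with P-SiaFNEtoc, and the median log2 fold changes were 0.00972, -0.21, -0.00208 and -0.0193. The shares of all genes fitted were 21.6%, 25.6%, 11.5% and 9.02% higher and 22.1%, 25.7%, 9.08% and 7.33% lower, in that order of inhibitors. AHNAK, a giant scaffold protein held at the membrane by S100A10 and ANXA2, rose with Fucotrim I (0.74 ± 0.05, SE), Fucotrim II (0.69 ± 0.07) and SGN-2FF (0.19 ± 0.04, a call lost in a fit of all 14 libraries at 0.17), its mean going from 306 ± 5.41 CPM (SD, n = 3) under DMSO up to 509 ± 32.0 CPM under Fucotrim I (SD, n = 3). Its value with P-SiaFNEtoc was 0.08 ± 0.04 and became a call without P-SiaFNEtoc replicate 3 (0.13). CACYBP, the calcyclin-binding protein and so the partner of S100A6, fell by 0.20 ± 0.05 on the log2 scale with Fucotrim I and by 0.52 ± 0.06 with Fucotrim II. Its fall with P-SiaFNEtoc (-0.12 ± 0.04) was no longer called when any of the 3 DMSO libraries or P-SiaFNEtoc replicate 1 or 2 was left out (-0.13 to -0.11), and with SGN-2FF it was at -0.03 ± 0.04. A fit of all 14 libraries did not call the P-SiaFNEtoc fall either (-0.122). MDM2, the ubiquitin ligase of p53, fell with Fucotrim II (-0.37 ± 0.07) and was at 0.06 ± 0.05, -0.02 ± 0.04 and -0.09 ± 0.04 with Fucotrim I, SGN-2FF and P-SiaFNEtoc.

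Other EF-hand genes were looked at to set the S100 genes beside calcium-binding proteins of the same fold. With Fucotrim I, 23 of the 27 listed had enough counts, and 6 were called higher and 5 lower (median log2 fold change -0.0227). With the other inhibitors 24 were fitted, with 9 higher and 6 lower for Fucotrim II (median 0.0408), 3 and 2 for SGN-2FF (median 0.00811) and 3 and 1 for P-SiaFNEtoc (median 0.00446). Of all genes fitted, 21.6%, 25.6%, 11.5% and 9.02% were called higher in the same order of inhibitors, and 22.1%, 25.7%, 9.08% and 7.33% lower. The calpain protease subunits CAPN1 and CAPN2 were higher. CAPN1 was called with Fucotrim I (0.32 ± 0.06, SE), Fucotrim II (0.55 ± 0.10), SGN-2FF (0.15 ± 0.05) and P-SiaFNEtoc (0.28 ± 0.05). Its SGN-2FF libraries overlapped DMSO, and the SGN-2FF call was lost without DMSO replicate 2 (0.08) or 3 (0.16) or SGN-2FF replicate 1 (0.13) or 2 (0.15). The same call was also lost with DESeq2 (0.148), DESeq2's size factors (0.149), limma-voom (0.156) and a fit of all 14 libraries (0.14). CAPN2 was called with Fucotrim I (0.52 ± 0.10), Fucotrim II (0.80 ± 0.14) and P-SiaFNEtoc (0.37 ± 0.09), and with SGN-2FF, at 0.24 ± 0.10, it was a call when DMSO replicate 3 was left out (0.36). Their small subunit CAPNS1 was called with P-SiaFNEtoc (0.14 ± 0.04), which was lost without DMSO replicate 3 (0.14) or P-SiaFNEtoc replicate 3 (0.09). The CAPNS1 call was also lost in a fit of all 14 libraries (0.136).

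RCN2, a calcium-binding protein of the endoplasmic reticulum, fell with all inhibitors, at -0.38 ± 0.05 (SE) with Fucotrim I, -0.56 ± 0.07 with Fucotrim II, -0.21 ± 0.04 with SGN-2FF and -0.22 ± 0.04 with P-SiaFNEtoc. CIB1, a calcium- and integrin-binding protein, rose with Fucotrim I (0.40 ± 0.05), Fucotrim II (0.68 ± 0.08) and SGN-2FF (0.19 ± 0.04, not called in a fit of all 14 libraries at 0.18), and CALML4, a calmodulin-like light chain, rose with the same 3 inhibitors (0.48 ± 0.09, 0.62 ± 0.12 and 0.48 ± 0.07). CALM2, a calmodulin gene, fell with Fucotrim II (-0.24 ± 0.07), and this call was lost without DMSO replicate 2 (-0.19) or 3 (-0.26).

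Because 8 of the S100 genes lie together, the other genes between 151982915 and 154134361 on chromosome 1 were examined, a stretch from the start of S100A10 to 0.5 Mb past S100A13. It holds 118 other annotated genes, many of them epidermal genes, and 18 had enough counts to be fitted. The numbers called higher and lower were 6 and 3 with Fucotrim I, 7 and 2 with Fucotrim II, 3 and 0 with SGN-2FF, and 3 and 0 with P-SiaFNEtoc, with median log2 fold changes of 0.137, 0.214, 0.0919 and 0.0245. Among all genes fitted, 21.6%, 25.6%, 11.5% and 9.02% were called higher in this order of inhibitors, and 22.1%, 25.7%, 9.08% and 7.33% lower. CREB3L4, a membrane-bound transcription factor known to be high in the prostate, was called higher with all inhibitors, at 0.83 ± 0.05 (SE), 0.96 ± 0.06, 0.57 ± 0.05 and 0.36 ± 0.05 in the same order. NPR1, a natriuretic peptide receptor with 33 to 88 counts per library, was called higher with Fucotrim II (0.82 ± 0.20), SGN-2FF (0.83 ± 0.18) and P-SiaFNEtoc (0.78 ± 0.18). With Fucotrim I it was at 0.55 ± 0.23, a value that rested on single libraries. It was 0.79 and a call without Fucotrim I replicate 2, and 0.32 and no call without replicate 3. It was also a call without the low-count filter (0.541) and in a fit of all 14 libraries (0.55). CRTC2, a coactivator of CREB, was called higher with Fucotrim I (0.18 ± 0.06), Fucotrim II (0.39 ± 0.06) and SGN-2FF (0.15 ± 0.05). Of these, the Fucotrim I call was lost without DMSO replicate 1 (0.15) or Fucotrim I replicate 3 (0.15), and the SGN-2FF call without DMSO replicate 1 (0.12) or 3 (0.16) or SGN-2FF replicate 2 (0.13). The SGN-2FF call was also lost with DESeq2 (0.15) and in a fit of all 14 libraries (0.142).

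Other genes of the same stretch differed in direction. ILF2, an RNA-binding protein, fell with Fucotrim I (-0.33 ± 0.04, SE) and Fucotrim II (-0.48 ± 0.07) and was at 0.00 ± 0.04 and 0.02 ± 0.04 with SGN-2FF and P-SiaFNEtoc. RPS27, a ribosomal protein gene, rose with Fucotrim I (0.29 ± 0.05) and Fucotrim II (0.67 ± 0.07), and was at 0.09 ± 0.04 and -0.04 ± 0.04 with the others. SLC39A1, a zinc importer, was called lower with Fucotrim I (-0.13 ± 0.05) and higher with P-SiaFNEtoc (0.14 ± 0.04). The first of these calls was lost without DMSO replicate 1 (-0.10) or 3 (-0.14) or Fucotrim I replicate 2 (-0.10) or 3 (-0.14), and the second without DMSO replicate 2 (0.12) or 3 (0.13) or P-SiaFNEtoc replicate 2 (0.125). The first was also lost with DESeq2 (-0.123), and the second in a fit of all 14 libraries (0.139). With the Fucotrims the stretch thus held genes called higher and genes called lower. With SGN-2FF and with P-SiaFNEtoc 3 of its genes were called higher and 0 lower.

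The genes whose levels most resembled those of S100P and S100A6 were sought among the 11836 genes that averaged 50 counts or more, by Pearson's r of log2 CPM over the 14 libraries. The libraries share their groups, so these values describe a likeness of patterns and carry no p-value. For S100P the first 5 were OPLAH, an enzyme of the glutathione cycle (r = 0.994), FXYD3, a regulator of the sodium pump (0.987), ELMO3, an adaptor in cell engulfment (0.986), PICK1, a PDZ-domain scaffold (0.986) and ACADVL, a mitochondrial enzyme of fatty acid oxidation (0.985). OPLAH had group means of 57.6 CPM in DMSO, 132 CPM with Fucotrim I, 174 CPM with Fucotrim II, 78.7 CPM with SGN-2FF and 71.6 CPM with P-SiaFNEtoc, the same order of groups as S100P. For S100A6 the first 5 were the transcription factor STAT6 (0.971), the trypsin inhibitor SPINK1 (0.97), the hyaluronan receptor CD44 (0.969), the splicing factor CELF3 (0.965) and the DNA repair gene ERCC1 (0.964). SPINK1 was at 55.2 CPM in DMSO, 83.0 CPM with Fucotrim I, 141 CPM with Fucotrim II, 86.4 CPM with SGN-2FF and 85.4 CPM with P-SiaFNEtoc. By Spearman's rho, 0 of these 5 were among the first 5 for either gene.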

How the data were processed

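The study grew CWR22Rv1 cells for 72 h with DMSO or an inhibitor and sequenced their mRNA (TruSeq Stranded kit, single reads). Per the study's methods, the authors aligned reads to hg38 with HISAT2 and counted them per gene with featureCounts. The authors deposited raw counts per gene, whole numbers in every column, which were used here with no change. The annotation release, the strand setting and the handling of reads with several matches are not given in the sources used here.

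Each inhibitor was fitted alone with DMSO in edgeR 4.0.16 (R 4.3.3), with TMM scaling, a low-count filter (minimum count 10, minimum total 15), robust quasi-likelihood tests and Benjamini-Hochberg adjustment over all genes fitted, with calls at 0.05. The steps were tested on simulated data. CPM levels came from a TMM scaling of all 14 libraries, and fold changes from the separate fits. DESeq2 1.42.0 and limma-voom (limma 3.58.1), other scaling, no filter, a replicate block, a fit of all libraries and leaving out each library were alternatives. Gene spans came from RefSeq, and exon lengths, overlaps and shared windows from the GENCODE annotation, both on hg38. Depth was 12553094 to 19981314 counts per library. The labels call the replicates biological but name no separate cultures, so errors and p-values measure the spread between these libraries. Intervals and the floor for a count of 0 cover counting error only.

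The members and gene lists were chosen with earlier results of these data known. All members were named, and from each list up to 3 called genes with the highest mean CPM and any gene called with at least 3 of the 4 inhibitors. S100A1, S100PBP and CETN2 were named outside this rule, after their values were seen. For S100P and S100A6 the 5 most alike genes were named. Some genes of the lists are not reported here. The SGN-2FF table has no symbols and was matched by NCBI gene number.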

Additional observations from a re-analysis of the deposited data

Results flagged for a closer look

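These are genes of the gene lists for which every library of one inhibitor lay above DMSO and every library of another below it. The groups have 2 or 3 libraries, so single libraries were not examined for standing apart. The difference between inhibitors was not tested, since their doses differ and they share the DMSO libraries.

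ANXA3 was at 1.86 ± 0.24 CPM (SD, n = 3) in DMSO, 1.11 ± 0.384 CPM (n = 3) with Fucotrim I, 1.08 ± 0.171 CPM (n = 2) with Fucotrim II and 2.93 ± 0.264 CPM (n = 3) with P-SiaFNEtoc. ANXA6 was at 62.7 ± 0.334 CPM (SD, n = 3) in DMSO, 47.4 ± 1.13 CPM (n = 3) with Fucotrim I, 74.5 ± 8.26 CPM (n = 2) with Fucotrim II and 76.5 ± 3.25 CPM (n = 3) with P-SiaFNEtoc. SLC39A1, from the chromosome 1 stretch, was at 261 ± 10.3 CPM (SD, n = 3) in DMSO, 238 ± 8.82 CPM (n = 3) with Fucotrim I and 288 ± 9.69 CPM (n = 3) with P-SiaFNEtoc.

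S100PBP, which encodes a nuclear protein that binds S100P, was at 31.5 ± 0.977 CPM (SD, n = 3) in DMSO, 36.7 ± 0.384 CPM (n = 3) with SGN-2FF and 27 ± 2.03 CPM (n = 3) with P-SiaFNEtoc. Its log2 fold changes were 0.23 ± 0.06 (SE) and -0.22 ± 0.07, both called by edgeR (Benjamini-Hochberg adjusted p = 0.0087 and 0.0202). The first call was lost in a fit of all libraries (0.217), and the second in that fit (-0.226), by DESeq2 (-0.223), and without DMSO replicate 2 (-0.197) or P-SiaFNEtoc replicate 1 (-0.208) or 3 (-0.183). CETN2, a centrin of the centriole, was at 35.9 ± 1.75 CPM (SD, n = 3) in DMSO, 30.2 ± 2.01 CPM (n = 3) with Fucotrim I and 39.3 ± 0.849 CPM (n = 2) with Fucotrim II. It was called lower with Fucotrim I (-0.24 ± 0.07), not without DMSO replicate 1 (-0.214) or Fucotrim I replicate 3 (-0.193), and was at 0.12 with Fucotrim II.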

How the results depend on the processing

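Of 24 fold changes of the set, 21 kept their direction and their side of the threshold under all 12 alternatives, 0 reversed, and the others (S100A10 with Fucotrim I, S100A11 and ANXA2 with Fucotrim II) crossed the threshold in at least 1. S100A11 with Fucotrim II ranged from 0.126 to 0.315. Of 104 fold changes of named list genes, 64 were unchanged in this sense, leaving out genes to which DESeq2 gives no adjusted p. Whether the replicate numbers of the labels pair the libraries cannot be decided from 2 or 3 pairs per inhibitor. Same-numbered libraries by sample title had correlations from -0.23 to 0.151. The correlation was best with the own number for 2 of 3 Fucotrim I libraries, 0 of 2 Fucotrim II libraries, and 1 of 3 with SGN-2FF and with P-SiaFNEtoc. The 2 Fucotrim II libraries are numbered 2 and 3 in the library names, not 1 and 2 as in the titles, and by those numbers they correlated with DMSO at 0.23 and 0.0649, where the title numbers gave -0.167 and -0.23. With the replicate block by title, all genes called went from 7511 to 5300 with Fucotrim II (7779 with the numbers of the library names) and from 6209 to 7288 with Fucotrim I, S100A11 with Fucotrim II fell below the threshold (0.203), and the other annexins called with Fucotrim II went from 4 to 2, while the block by library name kept the S100A11 call and 4 annexins. With the block by title, NPR1 with Fucotrim I (0.543) and CAPN2 with SGN-2FF (0.247) became calls, and ANXA3 (-0.755), ANXA6 (0.24) and CALM2 (-0.254) with Fucotrim II were no longer called. Leaving out a Fucotrim II library leaves 1, which is then assumed to vary like DMSO.

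Over all genes, calls with SGN-2FF went from 2946 to 1642 without SGN-2FF replicate 2, 1942 by DESeq2 and 1695 in a fit of all libraries. With P-SiaFNEtoc they went from 2331 to 1516 without P-SiaFNEtoc replicate 2, 1482 by DESeq2 and 998 in a fit of all libraries. The cause was not tested. The other annexins called were 1 to 4 with Fucotrim II when a library was left out (1 without DMSO replicate 2, and 2 without DMSO replicate 3 or Fucotrim II replicate 2). With P-SiaFNEtoc they went from 5 to 3 or 4 when a library was left out (3 without P-SiaFNEtoc replicate 1), to 3 by DESeq2, which gives ANXA3 no adjusted p, and to 3 in a fit of all libraries. Binding partners called went from 3 to 0 with SGN-2FF in a fit of all libraries. With P-SiaFNEtoc they went from 2 to 0 to 2 when a library was left out (0 without DMSO replicate 2 or P-SiaFNEtoc replicate 1, 1 without DMSO replicate 1 or 3 or P-SiaFNEtoc replicate 2), 1 by DESeq2 and 0 in a fit of all libraries. Other EF-hand genes called with SGN-2FF went from 5 to 3 in a fit of all libraries.

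Log2 fold changes whose sign depended on a library left out were CALM2 (-0.0737 to 0.00853) and S100PBP (-0.0306 to 0.127) with Fucotrim I. With Fucotrim II they were ANXA1 (-0.393 to 0.0468), CAPNS1 (-0.101 to 0.18), SLC39A1 (-0.00442 to 0.14), S100A1 (-0.345 to 0.41) and S100PBP (-0.244 to 0.409). S100PBP was called lower without Fucotrim II replicate 1 and higher without replicate 2, CAPNS1 and SLC39A1 were called higher without replicate 1, and the ANXA1 and S100A1 signs turned without replicate 1. With SGN-2FF they were ANXA3 (-0.21 to 0.094), MDM2 (-0.0572 to 0.00845) and ILF2 (-0.0224 to 0.017), and with P-SiaFNEtoc ANXA7 (-0.00897 to 0.0227) and ILF2 (-0.0123 to 0.045). Apart from S100PBP, CAPNS1 and SLC39A1 with Fucotrim II, none of these was called either way.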
